A study of Drosophila melanogaster with 31 samples.

Results

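Gene expression was compared between brains of 25-day-old and of 5-day-old male flies of Drosophila melanogaster that had been kept without odor and light and received no stimulus before dissection. The comparison takes the 2 brain libraries titled as 25 days at 0 min (A and B) against the 3 titled as 5 days at 0 min (A, B and C), that is 5 of the 23 brain libraries and of the 31 libraries of the series. All flies were OreR, a wild-type laboratory strain, and only males of this single strain were taken. The younger group carries an age of 4 to 5 days in its label. The series calls its replicates biological. However, the labels give neither the number of flies in a library nor whether the ages came from separate cohorts, so age and cohort cannot be told apart. The p-values rest on the spread between libraries within a group, estimated over all 23 brain libraries and not from these 5 alone. Libraries for RNA-seq were made from total RNA. The libraries compared held 31.1 M and 44.4 M estimated counts at 25 days and 28.0 M, 22.5 M and 62.0 M at 5 days. Brains of 10 days, and of 25 and 5 days after 30 min of odor and light, are used below for reference values.

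An adult fly brain holds neurons, several kinds of glia and the sheath around them, and a dissected brain can carry along pieces of retina, fat body and trachea and the blood cells (hemocytes) that adhere to it. Neuropeptides are short signalling peptides cut from precursor proteins, and many are made in a small number of neurons each, so that their transcripts are easily followed in whole-brain RNA. Glia take up transmitter, balance ions and join into layers through gap junctions, and hemocytes recognise and engulf microbes and dead cells through surface receptors of the Nimrod and scavenger families. In RNA of a whole tissue, a change in the number of cells of a type and a change in the RNA that each cell holds cannot be told apart.

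Markers of brain were present in all 5 libraries, and some transcripts of other tissues were high in a single 25-day library. The 19 pan-neuronal and transmitter genes tested summed to 18388 and 31144 CPM (counts scaled to the normalised library size) at 25 days and to 29436, 35273 and 29331 at 5 days. The glial transcription factor gene repo was at 118 and 77.8 CPM at 25 days, against 121, 69.2 and 61.1 at 5 days. Orco, which marks olfactory receptor neurons of the antenna, stayed at or below 9.70 CPM in each of the 5 libraries. The 25-day libraries were unlike each other. Their log CPM correlated at 0.915 with each other, while library B correlated at 0.974 with 5-day library C and at 0.99 with library B of stimulated 25-day brains. Cytosolic ribosomal protein transcripts summed to 29540 CPM in 25-day library A and 12561 in B, against 20970, 13748 and 12637 at 5 days. Digestive enzyme transcripts of the midgut (38 genes in the files, 23 tested) summed to 414 CPM in 25-day library A and 3.46 in B, against 28.1, 9.97 and 3.50 at 5 days. Each result below rests on this pair of 25-day libraries, and the part of these classes in the age difference was not tested.

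Of 10431 genes tested with edgeR's quasi-likelihood test over all 23 brain libraries, 172 (1.65%) passed a Benjamini-Hochberg adjusted p of 0.05. Of these, 108 (1.04%) rose and 64 (0.614%) fell in 25-day brains. The median log2 fold change (25 over 5 days) of the genes that rose was 1.44, and 79 of them were more than 2-fold higher. The genes that fell moved less, with a median of -0.69, and 19 of them were more than 2-fold lower. The median over all genes tested was 0.04, with 53.3% positive and 46.6% negative. In all 172 genes the libraries of the ages did not overlap, as was the case for 2016 genes tested (19.3%). Of the genes without overlap, 10.5% of all tested were higher and 8.8% lower at 25 days. An unadjusted p of 0.05 was passed by 1653 genes (15.8%), 8.86% higher and 6.99% lower, and the smallest adjusted p, 0.0179, was shared by 24 genes. In edgeR no gene passed the adjusted threshold with 25-day library B left out (1788 at the unadjusted one) or with 5-day library B left out (1033 unadjusted). The difference between deposited transcript length and effective length was 325 and 335 bases at 25 days, against 369, 369 and 335 bases at 5 days. It depends on the fragment length used in quantification, and each of the 23 brain libraries held 325, 335 or 369. Whether it was measured in a library or set for several is not known here. With this difference as a covariate, called the fragment length covariate below, 13 genes passed, of which 10 were among the 172.

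**Figure D1:**
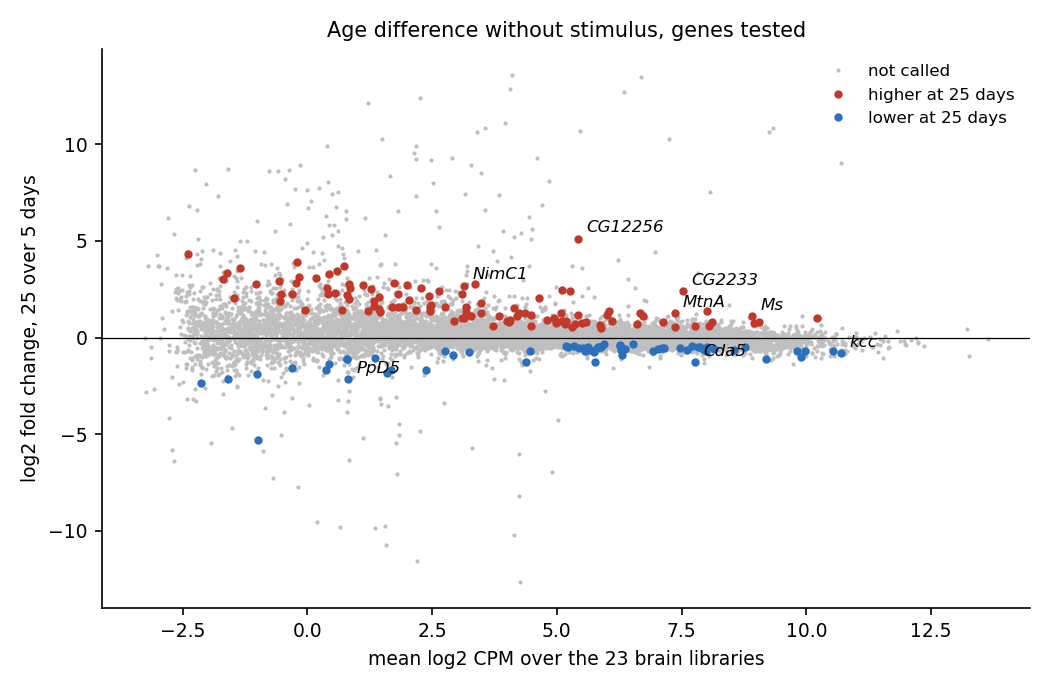
Log2 fold change of each gene tested, 25 over 5 days without stimulus (vertical axis), against its mean log2 CPM over the 23 brain libraries (horizontal axis). Red points are the 108 genes that rose, blue points the 64 that fell, and grey points are genes that were not called. The genes that rose have a median log2 fold change of 1.44 and those that fell one of -0.69, closer to 0.

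Genes of neuropeptide precursors were among those that rose. Of 43 neuropeptide genes tested (48 are in the files), 8 rose and none fell, which is 18.6% against a background of 1.04% for genes higher at 25 days. All 8 separated the ages without overlap, as did 17 of the 43 (39.5%, against 10.5% of all genes in that direction). A positive fold change was seen in 35 of 43, against 53.3% of all genes, and the median over the list was 0.59 against 0.04. Summed over the list, transcripts stood at 4366 and 5937 CPM at 25 days and at 2940, 2944 and 3571 CPM at 5 days.

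Among peptides with known roles in feeding, sleep and stress, NPF, the fly relative of neuropeptide Y, had 62.1 and 75.2 CPM at 25 days, against 28.4, 28.0 and 35.9 CPM at 5 days. Both older libraries lay above all younger ones, and the log2 fold change was 1.16 ± 0.18 (SE; adjusted p = 0.0179). NPF lies on chromosome 3R of BDGP6, positions 16609220 to 16611325. Ms, which encodes myosuppressin, a peptide that relaxes visceral muscle, had the highest level per transcript length of the 8, at 2326 TPM (a transcript level scaled by length) on average at 25 days and 1172 at 5 days. Its libraries read 637 and 868 CPM at 25 days, against 304, 332 and 403 CPM at 5 days, a log2 change of 1.12 ± 0.25 (adjusted p = 0.0351). Crz, corazonin, a stress and metabolism peptide, read 120 and 64.9 CPM at 25 days, against 43.1, 36.9 and 42.0 CPM at 5 days (log2 1.19 ± 0.26, adjusted p = 0.0351). Capa, whose peptides act on the renal tubules, read 111 and 112 CPM at 25 days, against 53.3, 25.9 and 48.5 CPM at 5 days (log2 1.39 ± 0.31, adjusted p = 0.0351).

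The allatostatins were higher as well. AstC (allatostatin C) read 333 and 633 CPM at 25 days, against 156.2, 170 and 232 CPM at 5 days (log2 1.38 ± 0.30, adjusted p = 0.0331). AstA (allatostatin A) read 169 and 224 CPM at 25 days, against 119, 96.1 and 119 CPM at 5 days (log2 0.82 ± 0.17, adjusted p = 0.0270). Orcokinin reached 147 and 164 CPM at 25 days, against 56.1, 58.5 and 76.6 CPM at 5 days (log2 1.29 ± 0.25, adjusted p = 0.0236). The smallest of the 8 changes was that of Trissin, with 74.3 and 48.8 CPM at 25 days, against 33.4, 38.3 and 33.9 CPM at 5 days (log2 0.81 ± 0.19, adjusted p = 0.0466). At 10 days the same genes read 59.2 and 59.7 CPM for NPF, 783 and 710 for Ms, 170 and 166 for Orcokinin and 389 and 297 for AstC.

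**Figure D2:**
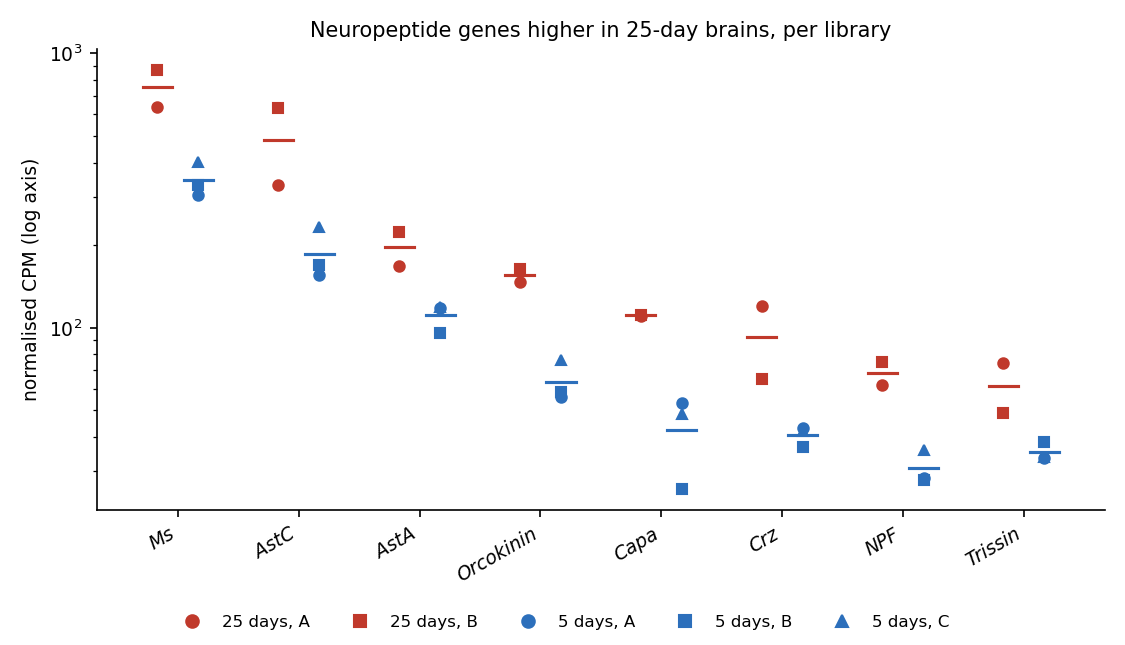
Normalised CPM (log axis) of the 8 neuropeptide genes that rose, per library, with red symbols for 25-day and blue symbols for 5-day brains and a bar at each group's mean. In each gene the 25-day libraries, such as 62.1 and 75.2 CPM for NPF, lie above the highest 5-day library.

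Crz, Capa and Trissin, and the uncalled genes that follow, were chosen after their values were seen. Some neuropeptide genes stood just outside the threshold. Nplp2 had 124 and 79.2 CPM at 25 days, against 20.6, 16.5 and 34.5 CPM at 5 days (log2 2.09 ± 0.51, adjusted p = 0.0509), and Mip had 172 and 128 CPM at 25 days, against 102, 78.0 and 67.8 CPM at 5 days (log2 0.86 ± 0.22, adjusted p = 0.0591). Nplp1 had a log2 change of -0.02 ± 0.18 (adjusted p = 0.980) and Akh, the glucagon-like adipokinetic hormone, one of -0.08 ± 0.50 (adjusted p = 0.960). The number higher depended on the libraries: it was 0 without 25-day library B, without 5-day library B, with the fragment length covariate and in a fit of the compared libraries alone, 1 (NPF) without 5-day library A, 5 without 5-day library C, 11 without 25-day library A (where 2 others were lower) and 12 with DESeq2.

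Among neuropeptide receptors and processing enzymes a single gene passed. Of 45 genes tested, 1 rose (2.22%, near the 1.04% of all genes) and none fell. The median log2 change was -0.03, and 20 were positive, against 53.3% of all genes. The 1 gene was Lgr1, a receptor of the glycoprotein hormone type, with 44.6 and 56.1 CPM at 25 days, against 26.3, 26.9 and 30.4 CPM at 5 days (log2 0.86 ± 0.15, adjusted p = 0.0179). Receptors of peptides that rose, chosen after their values were seen, did not pass, as with NPFR (-0.14 ± 0.12), CrzR (-0.06 ± 0.14) and TrissinR (-0.12 ± 0.14), and neither did Phm, an enzyme that finishes amidated peptides (-0.04 ± 0.12).

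Peptidases of 2 families were looked at after their values were seen, with members taken by symbol. Of 25 neprilysin and neprilysin-like genes tested, a family of metallopeptidases known to cleave peptides, 3 rose (Nepl9, Nepl14 and Nepl18) and none fell. That is 12%, against 1.04% of all genes. Of the 25, 15 were positive, against 53.3% of all genes, and the median was 0.49 against 0.04. Of 4 relatives of angiotensin-converting enzyme tested, 2 rose (Ance-4 and Ance-5), which is 50% against the same 1.04%. Nepl18 read 7.30 and 7.43 CPM at 25 days, against 2.45, 1.92 and 3.07 CPM at 5 days (log2 1.56 ± 0.35, adjusted p = 0.0378). Ance-5 read 19.6 and 11.2 CPM at 25 days, against 4.94, 4.52 and 5.93 CPM at 5 days (log2 1.58 ± 0.31, adjusted p = 0.0236).

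Receptor genes of blood cells rose, and the collagen gene Col4a1 of the same list did not pass. The hemocyte list had 22 genes tested, of which 3 (13.6%, against 1.04% of all genes) rose and none fell, with a median log2 change of 0.26. NimC1, a phagocytosis receptor of plasmatocytes, read 29.0 and 25.2 CPM at 25 days, against 2.82, 2.85 and 6.90 CPM at 5 days (log2 2.68 ± 0.48, adjusted p = 0.0179). Sr-CI, a scavenger receptor that binds bacteria, read 13.5 and 16.2 CPM at 25 days, against 1.78, 2.11 and 6.05 CPM at 5 days (log2 2.15 ± 0.50, adjusted p = 0.0447). NimB5, a secreted Nimrod protein, read 6.27 and 3.97 CPM at 25 days, against 1.23, 1.03 and 1.81 CPM at 5 days (log2 1.90 ± 0.38, adjusted p = 0.0236). In these 3 genes the ages did not overlap. Over the whole list, 7 of the 22 were higher without overlap (31.8%, against 10.5% of all genes) and 0 lower. Positive fold changes were seen in 17, against 53.3% of all genes.

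NimB5 and NimC1 are neighbours on chromosome 2L of BDGP6, at 13970177 to 13972173 and 13973158 to 13976769, 984 bases apart, and NimB5 overlaps exons of He. Other hemocyte genes, chosen after their values were seen, did not pass: eater, another phagocytosis receptor, read 3.99 and 5.22 CPM at 25 days, against 1.08, 0.688 and 2.38 at 5 days (adjusted p = 0.0688), and Hml, hemolectin, read 67.0 and 41.9 CPM at 25 days, against 18.1, 16.6 and 27.6 at 5 days (adjusted p = 0.147). The collagen gene Col4a1 stood at 157 and 31.9 CPM at 25 days, against 422, 215 and 81.8 CPM at 5 days (log2 -1.34 ± 0.85, adjusted p = 0.479). Summed over the list, hemocyte transcripts stood at 1439 and 599 CPM at 25 days and at 1654, 1062 and 695 CPM at 5 days, so that the list as a whole overlapped between the ages. The 3 calls were lost without 25-day library B, without 5-day library A or B, with the fragment length covariate and in a fit of the compared libraries alone, and DESeq2 called 5 genes. Among other genes of recognition and engulfment, lectin-28C, a C-type lectin gene that overlaps TwdlE, read 24.4 and 46.8 CPM at 25 days, against 2.53, 3.68 and 9.20 CPM at 5 days (log2 2.78 ± 0.63, adjusted p = 0.0394). The engulfment adaptor gene ced-6, chosen after its values were seen, read 199 and 237 CPM at 25 days, against 147, 142 and 155.7 CPM at 5 days (log2 0.55 ± 0.11, adjusted p = 0.0236).

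Immune and stress genes gave single calls. PGRP-LC, the receptor that senses bacterial peptidoglycan upstream of the Imd pathway, read 12.1 and 14.1 CPM at 25 days, against 7.10, 5.599 and 6.97 CPM at 5 days (log2 0.998 ± 0.20, adjusted p = 0.0250), the only gene of 35 immune recognition genes tested that was called (2.86%, against 1.04% of all genes). Of the 35, 31 were positive, against 53.3% of all genes, with a median of 0.37. Without overlap, 7 of the 35 were higher (20%, against 10.5% of all genes) and 0 lower. None of the 19 antimicrobial peptide genes tested was called by edgeR or DESeq2. An unadjusted p under 0.05 was reached by 6, all higher, against 8.86% of all genes in that direction. Of the 19, 16 were positive, against 53.3% of all genes, and the median was 1.11 against 0.04. The summed level of the 31 such genes in the files overlapped, at 179 and 35.5 CPM at 25 days and 79.2, 71.3 and 16.2 CPM at 5 days. DptA, a diptericin gene chosen after its values were seen, stood at 18.6 and 0.552 CPM at 25 days and at 0.743, 0.982 and 0.0335 CPM at 5 days, high in 1 older library. MtnA, a metallothionein that binds metal ions, read 267 and 240 CPM at 25 days, against 129, 85.1 and 105 CPM at 5 days (log2 1.25 ± 0.23, adjusted p = 0.0179). GstS1, a glutathione S-transferase, read 54.3 and 54.7 CPM at 25 days, against 35.1, 30.6 and 36.7 CPM at 5 days (log2 0.68 ± 0.16, adjusted p = 0.0462). These were the calls among 36 oxidative stress and metal genes tested (5.56%, against 1.04% of all genes). GstS1 and Cyp6a22, a cytochrome P450 gene (log2 2.27 ± 0.46, adjusted p = 0.0257), were those among 101 detoxification genes (1.98%, against the same 1.04%). Of the 101, 69 were positive, against 53.3% of all genes, with a median of 0.30. Without overlap, 29 were higher (28.7%, against 10.5% of all genes) and 3 lower (2.97%, against 8.8%).

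Among heat shock genes, Hsp67Bc, a small heat shock protein gene, fell, with 12.5 and 10.7 CPM at 25 days, against 23.2, 25.5 and 35.6 CPM at 5 days (log2 -1.28 ± 0.25, adjusted p = 0.0236). It was the only call among 27 chaperone genes tested (3.7% lower, against 0.614% of all genes), 22 of which were negative, against 46.6% of all genes. Hsp70Ab, chosen after its values were seen and one of several near-identical copies whose reads can be split between them, was at 12.97 and 0.301 CPM at 25 days, against 349, 20.4 and 15.6 CPM at 5 days (adjusted p = 0.253), high in 5-day library A. Of 36 lipid genes tested, 2 rose (5.56%, against 1.04% of all genes). Lsd-1, a perilipin that coats lipid droplets and whose gene overlaps CG10214, read 25.1 and 8.41 CPM at 25 days, against 2.53, 4.22 and 3.67 CPM at 5 days (log2 2.27 ± 0.54, adjusted p = 0.0458). Desat1, a fatty acid desaturase, read 726 and 857 CPM at 25 days, against 428, 430 and 527 CPM at 5 days (log2 0.78 ± 0.17, adjusted p = 0.0351). The fat body list had 0 of 20 genes called in edgeR, 9 at an unadjusted p of 0.05 (15.8% of all genes reached it) and 2 in DESeq2. It summed to 1430 and 4059 CPM at 25 days and 1136, 1579 and 1548 CPM at 5 days. The part of fat body in the lipid calls was not tested.

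The largest increases among called genes of at least 1 log2 CPM included several genes known only by a number. CG12256, on chromosome 3R at 12225282 to 12226339, read 99.2 and 200 CPM at 25 days, against 2.79, 3.68 and 6.31 CPM at 5 days (log2 5.12 ± 0.999, adjusted p = 0.0236). At 10 days it stood at 49.0 and 104 CPM. CG2233 was among the more abundant, with 464 and 603 CPM at 25 days, against 65.5, 98.5 and 143 CPM at 5 days (log2 2.38 ± 0.46, adjusted p = 0.0236). Muc14A, a mucin gene, read 53.0 and 150 CPM at 25 days, against 16.4, 15.1 and 23.3 CPM at 5 days (log2 2.48 ± 0.44, adjusted p = 0.0179). Beside these, NimC1 and lectin-28C, the 12 largest increases held CG4716, CG44014, CG4950, CG4250, NtR, mthl2 and Idgf1, with log2 changes from 2.40 (Idgf1) to 2.81 (CG4250), of which mthl2, a methuselah-like receptor gene, overlaps Eaf6 and CG4950 overlaps CG13069. Idgf1, a secreted chitinase-like growth factor, read 16.4 and 28.1 CPM at 25 days, against 2.86, 5.11 and 4.71 CPM at 5 days. CG13794 and CG13795, chosen after their values were seen, lie 221 bases apart on chromosome 2L, at 7719847 to 7722823 and 7723045 to 7726298, and both rose, by log2 1.56 ± 0.31 and 1.58 ± 0.35. Mmp1, a matrix metalloproteinase gene that overlaps Pof (log2 1.25 ± 0.23, adjusted p = 0.0207), and Timp, which encodes its inhibitor and lies within Syn (0.76 ± 0.15, adjusted p = 0.0236), were chosen after their values were seen. TotX, a Turandot stress gene, read 2.17 and 3.04 CPM at 25 days, against 0.186, 0.147 and 0.335 CPM at 5 days (log2 3.46 ± 0.83, adjusted p = 0.0466).

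RpL37A, a ribosomal protein gene, was among the abundant genes that rose and read 178 and 131 CPM at 25 days, against 87.0, 54.0 and 73.7 CPM at 5 days (log2 1.11 ± 0.26, adjusted p = 0.0458). It was the single call among 82 cytosolic ribosomal protein genes tested (1.22%, near the 1.04% of all genes). Of the 82, 77 were positive, against 53.3% of all genes, with a median of 0.53. That median was -1.15 without 25-day library A and 1.22 without B, the same libraries whose summed levels are given above. CG4577 (log2 1.03 ± 0.24, adjusted p = 0.0458) and CG10433 (0.75 ± 0.14, adjusted p = 0.0236) were the other abundant genes.

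Genes of transmitter uptake, ion transport and gap junctions were among those that fell. Eaat1, the glutamate transporter of glia, read 542 and 632 CPM at 25 days, against 975, 1341 and 1243 CPM at 5 days (log2 -1.02 ± 0.19, adjusted p = 0.0222). Its locus is 9333567 to 9341925 on chromosome 2L. The gene kcc, a potassium-chloride cotransporter, read 1090 and 1237 CPM at 25 days, against 1804, 2141 and 2087 CPM at 5 days (log2 -0.79 ± 0.14, adjusted p = 0.0179). The innexin gene ogre, which builds gap junctions between glia, read 133 and 148 CPM at 25 days, against 187, 214 and 212 CPM at 5 days (log2 -0.54 ± 0.13, adjusted p = 0.0458). Inx3, another innexin gene, chosen after its values were seen, read 34.1 and 36.2 CPM at 25 days, against 46.1, 52.7 and 54.6 CPM at 5 days (log2 -0.54 ± 0.12, adjusted p = 0.0351), while Inx2, chosen in the same way, stood just outside (log2 -0.76 ± 0.20, adjusted p = 0.0597).

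Most glial genes did not pass the test. Of 31 glial genes tested, 2 fell (Eaat1 and ogre) and 1 rose (NtR, which overlaps CG34205, log2 2.73 ± 0.54, adjusted p = 0.0236), which is 6.45% and 3.23% against 0.614% and 1.04% of all genes. The median was -0.16, and repo, the defining glial gene, had a log2 change of 0.23 ± 0.30. Summed over the list, glial transcripts stood at 10673 and 10302 CPM at 25 days and at 13624, 13283 and 12066 CPM at 5 days. The ogre call was made in 3 of the 10 other settings that gave any call, and the Eaat1 call in 9.

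**Figure D3:**
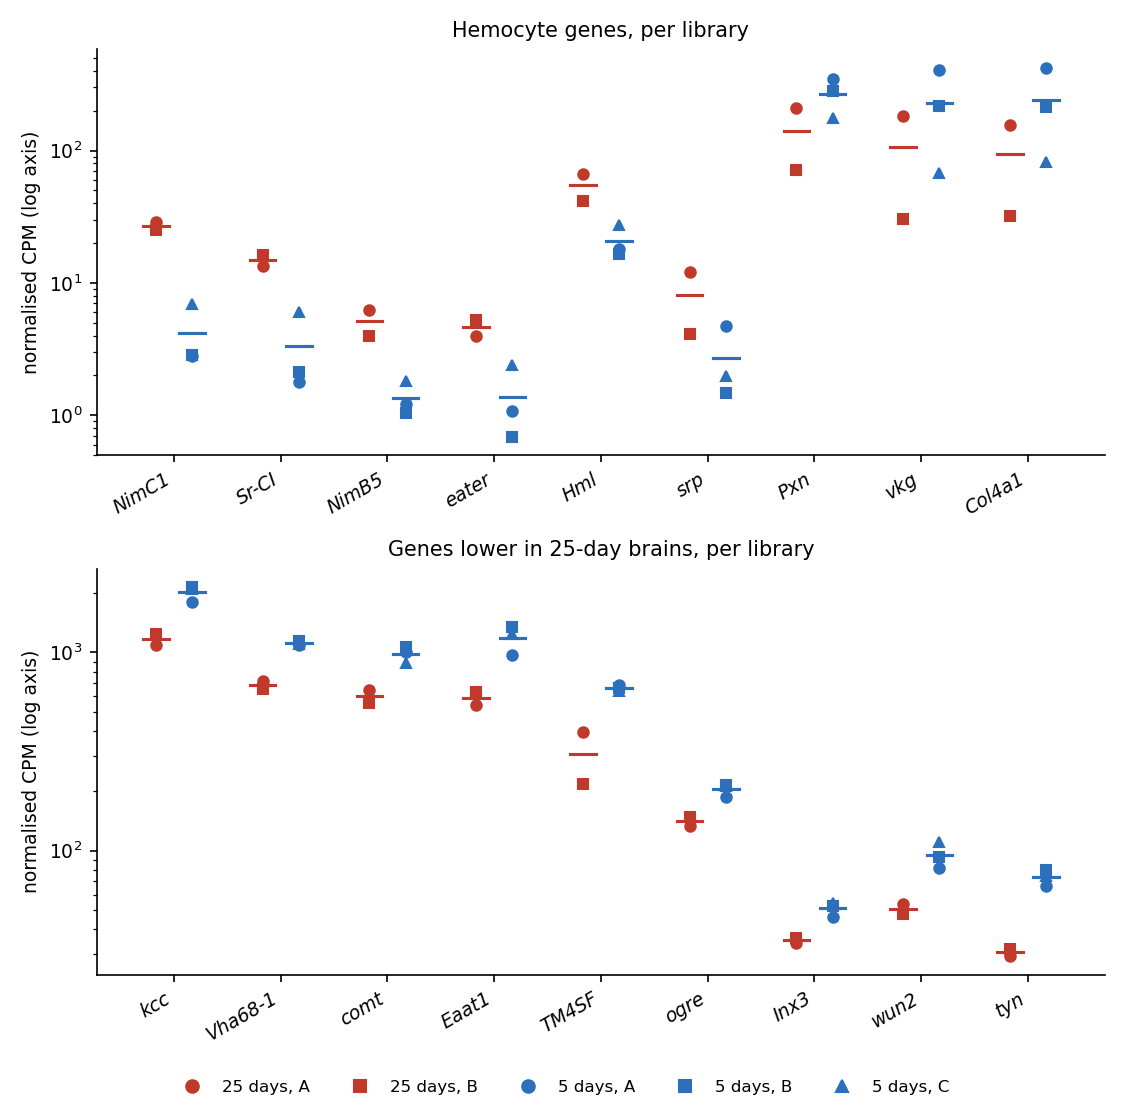
Normalised CPM (log axis) per library of hemocyte genes (upper panel) and of genes that fell (lower panel), with red symbols for 25-day and blue symbols for 5-day brains and a bar at each group's mean. In the upper panel NimC1, Sr-CI and NimB5 separate the ages with the older libraries higher, as do the uncalled eater and Hml, whereas Col4a1 overlaps. In the lower panel both 25-day libraries lie below the lowest 5-day library for each gene.

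Among the abundant genes that fell, comt, which encodes NSF, the ATPase that takes SNARE complexes apart, read 646 and 554 CPM at 25 days, against 1001, 1060 and 888 CPM at 5 days (log2 -0.71 ± 0.13, adjusted p = 0.0179). It was the only call among 36 synaptic vesicle genes tested (2.78% lower, against 0.614% of all genes). Of the 36, 28 were negative, against 46.6% of all genes, with a median of -0.26. Vha68-1, a catalytic subunit of the vacuolar proton pump, read 715 and 652 CPM at 25 days, against 1096, 1149 and 1098 CPM at 5 days (log2 -0.71 ± 0.11, adjusted p = 0.0179). It was the only call among 46 autophagy and lysosome genes tested (2.17%, against the same 0.614%). Of the 46, 21 were positive and 25 negative (53.3% and 46.6% of all genes), with a median of -0.03. Gad1, the enzyme that makes GABA, did not pass, with 1125 and 1588 CPM at 25 days and 1965, 2219 and 2337 CPM at 5 days (log2 -0.68 ± 0.17, adjusted p = 0.0553), though its groups did not overlap. The polyubiquitin gene Ubi-p5E had a log2 change of -0.69 ± 0.17 (adjusted p = 0.0473).

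Among the largest decreases, TM4SF, a tetraspanin, read 396 and 218 CPM at 25 days, against 684, 663 and 642 CPM at 5 days (log2 -1.11 ± 0.23, adjusted p = 0.0270). The gene tyn, a zona pellucida protein of the apical matrix, read 29.4 and 32.0 CPM at 25 days, against 66.3, 79.6 and 74.4 CPM at 5 days (log2 -1.26 ± 0.20, adjusted p = 0.0179), and Cda5, a chitin deacetylase-like gene, read 121 and 143 CPM at 25 days, against 314, 383 and 272 CPM at 5 days (log2 -1.29 ± 0.25, adjusted p = 0.0236). In wun2, a lipid phosphate phosphatase, the levels were 53.7 and 47.7 CPM at 25 days, against 81.4, 92.3 and 111 CPM at 5 days (log2 -0.90 ± 0.15, adjusted p = 0.0179). The weakly expressed CG10177 (log2 -1.69 ± 0.32), CG8568 (-1.68 ± 0.29), CG10185 (-1.86 ± 0.39) and CG14434 (-0.90 ± 0.18) were also among the largest decreases. So was obst-A, a chitin-binding protein gene, with 1.57 and 1.28 CPM at 25 days, against 3.46, 2.70 and 2.86 CPM at 5 days (log2 -1.08 ± 0.25, adjusted p = 0.0407). It was the only call among 36 trachea and cuticle genes tested (2.78%, against 0.614% of all genes lower). Of the 36, 21 were positive and 15 negative (53.3% and 46.6% of all genes), with a median of 0.10. Exons overlap in some of these: tyn overlaps RhoGAP1A and CG17707, TM4SF overlaps CG4882 and CG10185 overlaps msps. The TruSeq kit used does not keep the strand, so reads from the shared stretch of such neighbours cannot be told apart by strand. Of the 172 genes, 38 overlap exons of another measured gene, as do 33.6% of genes tested. Or10a and Gr10a, both lower, have the same annotated extent and the same CPM in each library, 1.25 and 1.15 at 25 days, against 2.68, 2.16 and 2.85 at 5 days, so their reads cannot be split between them.

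Lists of neuronal function held few calls, and their summed levels split the 25-day libraries. Of 95 cell adhesion and wiring genes tested, 1 fell (1.05%, against 0.614% of all genes), 14 were lower without overlap (14.7%, against 8.8%) and 75 were negative, against 46.6% of all genes. The call was trn, a leucine-rich repeat surface protein gene, with 45.8 and 43.8 CPM at 25 days, against 58.9, 66.2 and 61.0 CPM at 5 days (log2 -0.47 ± 0.10, adjusted p = 0.0307). Summed, this list stood at 20105 CPM in 25-day library A and 32099 in B, against 28523, 32025 and 29786 CPM at 5 days. Library A was thus below and library B slightly above all 5-day libraries.

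Of 49 neurotransmitter receptor genes, edgeR called 0 and DESeq2 2. An unadjusted p of 0.05 was reached by 9 of the 49, 7 lower and 2 higher (6.99% and 8.86% of all genes). Without overlap, 8 were lower (16.3%, against 8.8% of all genes) and 0 higher (against 10.5%). Of the receptor genes, 38 were negative, against 46.6% of all genes, with a median of -0.17 against 0.04. Their sum was 10323 CPM in 25-day library A and 19231 in B, against 14462, 17911 and 17497 CPM at 5 days, so again the 25-day libraries lay on opposite sides. The synaptic vesicle list behaved in the same way, with 29574 CPM in 25-day library A and 53085 in B, against 43997, 52291 and 49867 CPM at 5 days. Of 34 channel and pump genes, kcc was the call (2.94%, against 0.614% of all genes lower). Of the 34, 27 were negative, against 46.6% of all genes, with a median of -0.18. Their sum was lower in both older libraries, at 27707 and 40448 CPM at 25 days, against 45526, 54289 and 44982 CPM at 5 days. Outside the neuronal lists, MetRS, which charges the methionine tRNA, read 41.5 and 37.5 CPM at 25 days, against 54.1, 59.2 and 52.5 CPM at 5 days (log2 -0.49 ± 0.11, adjusted p = 0.0331). MetRS was the only call among 19 tRNA synthetase genes (5.26%, against 0.614% of all genes).

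Of 34 pathway lists, 20 had no gene called in edgeR. Nuclear oxidative phosphorylation (71 genes tested) had a median of -0.04, with 1 gene at an unadjusted p of 0.05 and 1 in DESeq2. The tricarboxylic acid cycle (19 genes) had a median of -0.25, with 3 genes at an unadjusted p and 3 in DESeq2, and the circadian clock (18 genes) one of 0.01, with 1 and 1. In phototransduction, 0 of 33 genes were called by edgeR (14 at an unadjusted p of 0.05, 4 in DESeq2). The unadjusted p was reached by 15.8% of all genes. Positive fold changes were seen in 25, against 53.3% of all genes, and the median was 0.68. Without overlap, 17 were higher (51.5%, against 10.5% of all genes). The summed level overlapped, at 7151 and 11950 CPM at 25 days and 7638, 9828 and 10288 CPM at 5 days. Rh3, an ultraviolet-sensitive rhodopsin, read 19.2 and 26.9 CPM at 25 days, against 5.83, 5.01 and 6.20 CPM at 5 days (log2 2.02 ± 0.57, adjusted p = 0.0830), and ninaE, the main rhodopsin gene of the outer photoreceptors, chosen after its values were seen, read 322 and 265 CPM at 25 days, against 106, 60.3 and 73.5 CPM at 5 days (adjusted p = 0.226). The list of retina and pigment cells had 0 of 23 called in edgeR, 11 at an unadjusted p (9 higher and 2 lower) and 4 in DESeq2. Of the 23, 16 were positive, with a median of 0.92. Without overlap, 11 were higher (47.8%, against 10.5% of all genes) and 2 lower (8.7%, against 8.8%). The list summed to 4065 and 5044 CPM at 25 days and 5087, 5966 and 4231 CPM at 5 days, so the sums overlapped. The part of retina attached to the brain was not tested. At 10 days ninaE was at 59.3 and 300.4 CPM.

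The age difference was then read in separate libraries, those of brains taken after 30 min of odor and light, with 2 libraries at 25 days and 3 at 5 days. In the same test 51 genes (0.489%) were called there, 22 higher (0.211%) and 29 lower (0.278%), with 1856 at an unadjusted p of 0.05 (17.8%). Of the 108 genes that rose without stimulus, 108 had a positive fold change after the stimulus (51.8% of all genes did) and 100 (92.6%) also an unadjusted p under 0.05, against 10.7% of all genes. Of the 64 that fell, 62 were negative (48.1% of all genes) and 54 (84.4%) reached that p, against 7.07% of all genes. Both comparisons take each gene's spread from the same fit, so a gene called in the first tends to a small p in the second. The shares of all genes are therefore not a like baseline for these p-values. The calls of both comparisons shared 33 genes, 15 higher and 18 lower, which is 19.2% of the unstimulated and 64.7% of the stimulated calls. The shared calls included NimC1, Ms, AstC, Orcokinin, Lgr1, comt, Vha68-1, kcc, wun2, tyn and TM4SF.

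Libraries of the same letter were alike between the stimulated and unstimulated 25-day groups, with a correlation of 0.88 for A and for B of their deviations from the group means, and the labels do not say whether they share flies or a preparation. Taken alone against the mean of the stimulated 5-day libraries, 25-day library A gave a median log2 difference of 0.91 for the genes that rose and -0.52 for those that fell, and library B 0.88 and -0.50, beside 0.02 and -0.04 over all genes. Every stimulated 5-day library and stimulated 25-day library B had the same length difference of 335 bases. The age difference without stimulus minus that after it was not called for any gene in edgeR (79 at an unadjusted p of 0.05, 0.757%; smallest adjusted p 0.9999), against 7 in DESeq2.

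**Figure D4:**
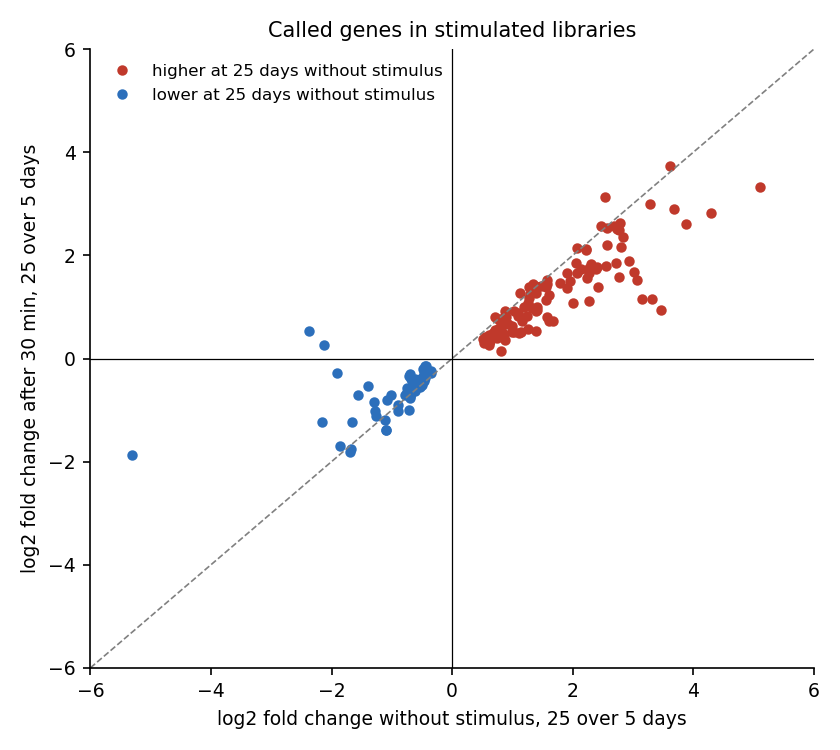
Log2 fold change, 25 over 5 days, of the 172 genes called without stimulus (horizontal axis) against that of the same genes in the libraries taken after 30 min of stimulus (vertical axis), with a dashed line of equality. All 108 genes that rose lie above 0 on the vertical axis and 62 of the 64 that fell lie below it, with most points nearer to 0 than on the horizontal axis.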

How the data were processed

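The authors made the brain libraries from total RNA (Trizol) with the TruSeq RNA v2 kit, per the labels' protocols. HiSeq2000 and NextSeq500 instruments are named, but not which library ran on which. The deposited tables hold estimated counts and TPM for 30490 transcripts, per the file headers. Their processing notes list kallisto 0.43.1, CASAVA 1.7, edgeR 3.18.1 and the build dm6. The strand setting is not known here.

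For this report, transcripts were matched to genes through Ensembl's BDGP6.54 (30255 matched, 13821 genes). Unmatched transcripts, 0.396% to 0.514% of a library's counts, were left out, and expected counts were summed per gene and rounded. The test was edgeR 4.0.16 in R 4.3.3 (TMM, filterByExpr, robust quasi-likelihood fit, 1 coefficient per group, no covariate) over all 23 brain libraries, so that small groups share one spread (14 residual degrees of freedom). Adjusted p-values (Benjamini-Hochberg over all genes tested, threshold 0.05) are from this test, and fold changes are log2 with ± SE. CPM is TMM-normalised. TPM served for levels between genes and for limma 3.58.1. Other settings were DESeq2 1.42.0, other scaling and filters, a replicate block, a fragment length covariate and leaving libraries out. The scripts were tested on simulated counts.

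Genes were named by this rule: called genes without overlap, up to 12 in each direction by size of fold change (mean of at least 1 log2 CPM) and 5 by TPM, up to 4 called members of each of 46 lists by adjusted p (2 members where none was called), and up to 5 in each direction after the stimulus. Exceptions are marked in the text. The comparison, members and lists were chosen with earlier results of these data known.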

Additional observations from a re-analysis of the deposited data

How the results depend on the processing

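The number of genes called without stimulus, 172, moved to 545 with DESeq2, 94 with no filter on low counts, 1575 with the replicate letter as a block, 13 with the fragment length covariate and 0 when the 5 compared libraries alone were fitted (568 at an unadjusted p of 0.05). Leaving out one library gave 0 to 1165 genes: 0 without 25-day B, 1165 without 25-day A, 42 without 5-day A, 0 without 5-day B and 137 without 5-day C. With 25-day B and 5-day C left out together, a choice made after seeing the data, it was 0 (1477 unadjusted), and 164 when stimulated 25-day B was left out as well, of which 41 were among the 172. Whether the letters pair the libraries cannot be established from 2 pairs: deviations of equal letters between the ages correlated at 0.54 (A) and 0 (B). Between the unstimulated and stimulated 25-day groups the value was 0.88, the same for A and B since each group holds 2 libraries, and the fit without the block treats these groups as independent.

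After the stimulus, 51 calls moved to 424 with DESeq2, 9 with no filter on low counts, 2205 with the block and 0 when the compared libraries alone were fitted, and leaving out one library gave 0 to 929: 929 without 25-day A, 4 without 25-day B, 0 without 5-day A, 0 without 5-day B and 130 without 5-day C. The difference between the age effects had 0 calls throughout except with DESeq2 (7). Of 13 other settings for the unstimulated comparison, 3 made no call, and in the other 10 CG10177, CG18563, CG44014, CG8568, Hsp67Bc, Lac, PpD5, flip and wun2 were called each time. Of 598 recomputed list medians, 116 moved by more than the spread between replicates.

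Of the 172 genes, 36 had a mean below 1 log2 CPM.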
